A study of Mus musculus with 12 samples.

Results

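The 10 genes Gata1, Zfpm1, Tal1, Gfi1b, Klf1, Nfe2, Fli1, Itga2b, Pf4 and Ppbp belong to the red cell and platelet lineages, and they were followed here in Ba/F3 cells, a mouse pro-B line that needs the cytokine interleukin-3 (IL-3) unless an oncogene replaces its signal. They were listed by symbol and matched to Ensembl identifiers (Gata1 ENSMUSG00000031162, Zfpm1 ENSMUSG00000049577, Tal1 ENSMUSG00000028717, Klf1 ENSMUSG00000054191, Gfi1b ENSMUSG00000026815, Nfe2 ENSMUSG00000058794, Fli1 ENSMUSG00000016087, Itga2b ENSMUSG00000034664, Pf4 ENSMUSG00000029373 and Ppbp ENSMUSG00000029372), and they are 10 of the 55471 genes in the count table. The list holds 7 transcription factor genes and the 3 platelet product genes Itga2b, Pf4 and Ppbp. All 10 were among the 17197 genes that passed the filter on low counts. Pf4 and Ppbp passed it through the BCR-ABL1 lines. Pf4 had at least 10 counts in 4 BCR-ABL1 lines, 2 SFPQ-ABL1 lines and 1 MSCV line, and Ppbp reached 10 counts in the 4 BCR-ABL1 lines and in 0 lines of the other groups.

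RNA sequencing measured 12 lines in 3 groups of 4, and the series' design text describes the lines of a group as independent. One group expressed BCR-ABL1 and one SFPQ-ABL1, each a fusion that holds the ABL1 tyrosine kinase, and both grew without IL-3. Lines of the third group held the MSCV retrovirus with no insert, and their medium contained murine IL-3 at 0.5 ng/ml. All are labelled as otherwise untreated pro-B cells of the Ba/F3 line, and the sources used here give neither whether a line is a single clone nor how the 4 of a group were made. In both comparisons with MSCV, the fusion and the lack of IL-3 cannot be told apart, and these comparisons share the MSCV lines. SFPQ-ABL1 and BCR-ABL1 lines both grew without IL-3.

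Gata1, a zinc finger factor, is the central activator of red cell and megakaryocyte genes. It works with its cofactor Zfpm1 (also called FOG1) and in a complex with the helix-loop-helix factor Tal1, while Gfi1b is a repressor in the same lineages. Klf1 then drives adult globin and haem synthesis genes in red cell precursors, and Fli1 and Nfe2 act in megakaryocytes, which release platelets. Itga2b encodes the CD41 chain of the platelet fibrinogen receptor, and Pf4 and Ppbp encode chemokines stored in platelet granules.

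Gene counts totalled 59355018 to 80616227 per library, so 1 CPM (a count scaled by library size and TMM factor) stood for 61.15 to 82.2 counts. Fusion reads checked the labels: Abl1 exon 9 was at 9.23 to 20.8 CPM in BCR-ABL1 lines, 4.36 to 26.8 in SFPQ-ABL1 lines and 0.0454 to 0.0529 in MSCV lines (exon counts, scaled by the gene totals). A pair of lines stood apart. SFPQ-ABL1 line 2 had the 4.36 CPM on Abl1 exon 9, where the next lowest SFPQ-ABL1 line had 17.8. On Sfpq exon 9 SFPQ-ABL1 line 2 had 4.39 CPM, against 14.5 to 20 in the other SFPQ-ABL1 lines, while BCR-ABL1 line 4 stood at 3.6 CPM and BCR-ABL1 lines 1 to 3 at 1.53 to 1.98. On the Bcr exon used for the same check BCR-ABL1 lines had 1.33 to 2.64 CPM, SFPQ-ABL1 line 2 had 0.304, the other SFPQ-ABL1 lines 0.0744 to 0.168 and MSCV lines 0.0661 to 0.151. Whether these lines were mixed or exchanged was not tested, so counts of calls are also given without both. The pro-B markers Igll1, Pax5, Ebf1, Rag1 and Dntt had at most 8 counts in every library, while Cd79a was at 33.6 to 98.2 CPM across the 12 lines. The red cell marker Slc4a1 had at most 3 counts in every library, the megakaryocyte marker Vwf at most 7, and the mast cell and basophil markers Kit and Mcpt8 at most 3.

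Promoter sequences are shown for Klf1, Pf4 and Ppbp, whose levels set the BCR-ABL1 lines apart in the results that follow. RefSeq windows (GRCm38.p6) of 300 bases, from 250 bases before to 50 after the annotated start, were found for 8 of the 10 genes, with 9 windows in all. The Klf1 window is chr8:84901732-84902031 on the plus strand. The Pf4 window is chr5:90772185-90772484 and the Ppbp window chr5:90768268-90768567, both on the plus strand. Capitals mark a GATA word (the letters GATA after an A or a T and before an A or a G, either strand) in Klf1 and Pf4 and an ETS word (GGAAGT, either strand) in Pf4 and Ppbp.
Klf1 promoter: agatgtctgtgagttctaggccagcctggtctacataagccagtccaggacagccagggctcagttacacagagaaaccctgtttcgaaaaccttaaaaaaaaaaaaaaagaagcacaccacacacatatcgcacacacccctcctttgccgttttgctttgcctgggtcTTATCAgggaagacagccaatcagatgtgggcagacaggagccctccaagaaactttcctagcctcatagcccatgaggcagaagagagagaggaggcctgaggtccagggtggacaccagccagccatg
Pf4 promoter: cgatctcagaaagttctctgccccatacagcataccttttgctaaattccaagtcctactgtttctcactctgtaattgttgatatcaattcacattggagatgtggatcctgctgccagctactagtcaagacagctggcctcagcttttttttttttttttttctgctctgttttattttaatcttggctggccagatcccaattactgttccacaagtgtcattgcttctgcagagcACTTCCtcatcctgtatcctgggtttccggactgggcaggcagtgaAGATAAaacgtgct
Ppbp promoter: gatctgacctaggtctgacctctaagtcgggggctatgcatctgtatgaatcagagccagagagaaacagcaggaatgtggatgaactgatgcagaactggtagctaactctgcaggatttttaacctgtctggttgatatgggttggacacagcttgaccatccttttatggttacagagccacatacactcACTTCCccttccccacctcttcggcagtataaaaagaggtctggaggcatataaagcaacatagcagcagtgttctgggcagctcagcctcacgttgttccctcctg

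In the Klf1 window the GATA word starts at base -80 and reads on the minus strand, counting -1 as the last base before the start and 1 as the first base of the transcript. Pf4 holds a GATA word at base 37 on the plus strand and an ETS word at base -10 on the minus strand, and Ppbp holds an ETS word at base -57 on the minus strand. A GATA word was present in 29.8% of all 32851 promoter windows of this length and the ETS word in 23.8%. The KLF word CNCNCCC was found in Klf1 at base -116 and not in the Pf4 and Ppbp windows, and 67.9% of all windows held it. The NFE2 word TGACTCA, which AP-1 factors also bind, was in 0 windows of the 8 genes and in 5.2% of all windows. The composite of an E-box (CANNTG) and a GATA word 8 to 10 bases further on, the kind of site bound by the complex of Gata1 and Tal1, was also in 0 of them and in 0.575% of all windows. GATA words also stood in one of the Tal1 windows at base -205 and in the Gfi1b window at base -120. These are letter matches only.

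Levels were set against each other as CPM per kilobase of annotated exon. Itga2b averaged 199 ± 44.7 on this scale in BCR-ABL1 lines, 139 ± 18.1 in SFPQ-ABL1 lines and 148 ± 34.9 in MSCV lines (mean ± SD, n = 4 lines each). Nfe2 averaged 92.3 ± 27.5 in BCR-ABL1 lines, 134 ± 20.4 in SFPQ-ABL1 lines and 165 ± 28.1 in MSCV lines, so Itga2b led in the BCR-ABL1 lines and the means of both genes lay within 1 SD of each other in the other groups. Zfpm1 averaged 111 ± 31.9 in BCR-ABL1 lines, 97.6 ± 11.5 in SFPQ-ABL1 lines and 126 ± 24.7 in MSCV lines. Its mean was above that of Nfe2 in the BCR-ABL1 lines and below it in the others, and the lines of both genes overlapped in the BCR-ABL1 and MSCV groups. Tal1, Gfi1b and Gata1 held the middle of the order, with group means of 44.2 to 70.5, and Fli1 lay between 31.4 and 38.8. Klf1 was at 14.2 ± 5.49, 32.7 ± 10.7 and 37.5 ± 10 in BCR-ABL1, SFPQ-ABL1 and MSCV lines, which in SFPQ-ABL1 and MSCV lines was within 1 SD of Fli1. Pf4 and Ppbp had the lowest means in every group. Pf4 was at 9.55 ± 5.95 per kilobase in BCR-ABL1 lines, 0.161 ± 0.115 in SFPQ-ABL1 lines and 0.173 ± 0.155 in MSCV lines, and Ppbp was at 1.4 ± 0.841, 0.0144 ± 0.0214 and 0.00709 ± 0.0142. In the BCR-ABL1 lines the mean of Pf4 lay within 1 SD of that of Klf1, and Pf4 was the higher of both in BCR-ABL1 line 2 (9.43 for Pf4, 8.02 for Klf1) and in line 4 (18 for Pf4, 11.1 for Klf1). All 7 transcription factor genes and Itga2b were thus read well above 0 in every one of these pro-B lines, while the granule chemokines were near 0 outside the BCR-ABL1 group. In such bulk samples, fewer cells that make a transcript and less of it per cell cannot be told apart.

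**Figure D1:**
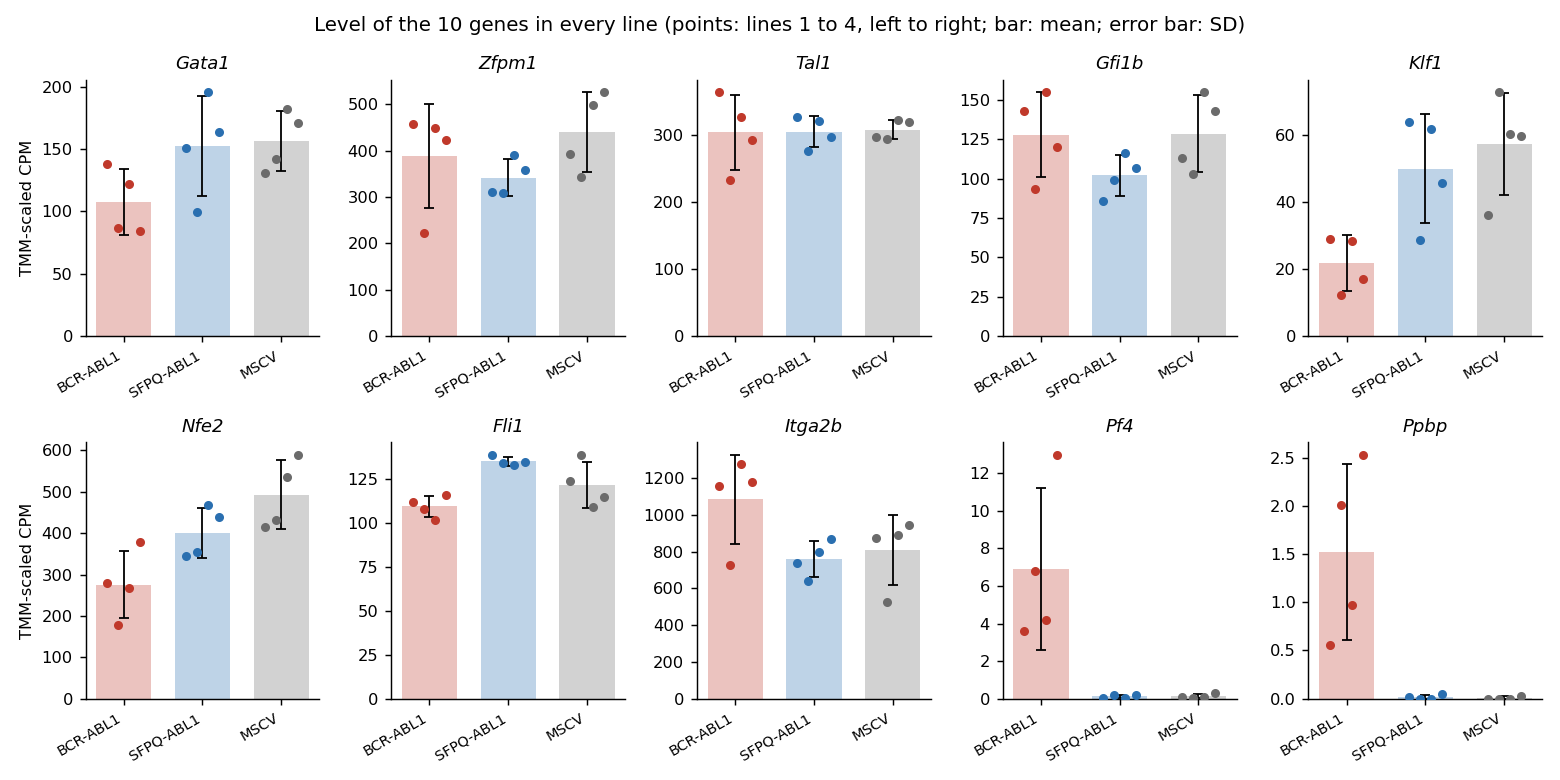
TMM-scaled CPM of the 10 genes (vertical axes, each with its own scale from 0) in BCR-ABL1, SFPQ-ABL1 and MSCV lines; points are lines 1 to 4 from left to right, bars the mean and error bars the SD of 4 lines. Klf1 and Nfe2 sit lowest in the BCR-ABL1 lines, and Pf4 and Ppbp rise above the axis in the BCR-ABL1 lines, at up to 13 and 2.53 CPM.

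Gata1 ran lower in the BCR-ABL1 lines, and whether it passed depended on the test and on single lines. It had 138, 86.6, 122 and 84 CPM in BCR-ABL1 lines 1 to 4, 151, 99.8, 196 and 164 in SFPQ-ABL1 lines 1 to 4 and 131, 142, 182 and 171 in MSCV lines 1 to 4 (chromosome X, 7959260 to 7978071, minus strand, mm10). BCR-ABL1 lines 2 and 4 and SFPQ-ABL1 line 2 were the lowest of the 12. The BCR-ABL1 lines overlapped the MSCV lines through BCR-ABL1 line 1 and the SFPQ-ABL1 lines through SFPQ-ABL1 line 2. The log2 fold change of BCR-ABL1 over MSCV was -0.54 ± 0.21 (SE) with an edgeR adjusted p of 0.0619. It was -0.04 ± 0.21 for SFPQ-ABL1 over MSCV (adjusted p = 0.948) and 0.50 ± 0.21 for SFPQ-ABL1 over BCR-ABL1 (adjusted p = 0.0891). With all lines kept, the difference of BCR-ABL1 from MSCV passed with DESeq2 (adjusted p = 0.0382), and with edgeR in a fit of the 8 libraries compared (0.0345) and with no filter on low counts (0.0358), but not with limma-voom (0.0566). In edgeR it also passed with an adjusted p of 0.0277 without BCR-ABL1 line 1 and 0.0273 without SFPQ-ABL1 line 2. The difference of SFPQ-ABL1 from BCR-ABL1 passed with 0.0425 and 0.019 without the same lines. Most settings did not call Gata1: of 20 settings besides the main fit, 6 called BCR-ABL1 against MSCV and 4 called SFPQ-ABL1 against BCR-ABL1.

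Its cofactor gene Zfpm1 (chromosome 8, 122282141 to 122337251, plus strand) had 458, 222, 450 and 422 CPM in BCR-ABL1 lines 1 to 4. It had 310, 308, 391 and 358 CPM in SFPQ-ABL1 lines 1 to 4 and 393, 343, 499 and 526 in MSCV lines 1 to 4. BCR-ABL1 line 2 held less than any other line, and the remaining BCR-ABL1 lines lay inside the MSCV range. The log2 fold changes were -0.18 ± 0.21 for BCR-ABL1 over MSCV, -0.37 ± 0.21 for SFPQ-ABL1 over MSCV and -0.18 ± 0.21 for SFPQ-ABL1 over BCR-ABL1, with edgeR adjusted p of 0.532, 0.366 and 0.545. Without BCR-ABL1 line 2 the first of these was 0.01.

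Tal1 (chromosome 4, 115056426 to 115071755, plus strand), whose product joins Gata1 on DNA, had nearly the same mean in all groups. Its means were 305 ± 56.2 CPM in BCR-ABL1 lines, 306 ± 23.3 in SFPQ-ABL1 lines and 309 ± 14.7 in MSCV lines (SD, n = 4 lines each). The lines ran from 233 to 365 CPM with BCR-ABL1, 277 to 327 with SFPQ-ABL1 and 295 to 323 with MSCV, so the spread was widest in the BCR-ABL1 group and covered both of the others. Each log2 fold change lay within 0.02 of 0, with an SE of 0.12 and edgeR adjusted p of 0.928, 0.97 and 0.98.

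The repressor gene Gfi1b (chromosome 2, 28609450 to 28621982, minus strand) averaged 128 ± 27 CPM in BCR-ABL1 lines, 102 ± 12.7 in SFPQ-ABL1 lines and 128 ± 24.4 in MSCV lines. Single lines had 93.4 to 155 CPM with BCR-ABL1, 85.9 to 116 with SFPQ-ABL1 and 103 to 155 with MSCV, so all 3 groups overlapped. The log2 fold change was -0.33 ± 0.17 for SFPQ-ABL1 over MSCV and -0.33 ± 0.17 for SFPQ-ABL1 over BCR-ABL1, and neither passed (edgeR adjusted p = 0.307 and 0.166). For BCR-ABL1 over MSCV it was 0.00 ± 0.17.

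Klf1 fell in the BCR-ABL1 lines against both other groups (chromosome 8, 84901928 to 84905291, plus strand; its promoter window is printed above). The gene had 29, 12.3, 28.5 and 16.9 CPM in BCR-ABL1 lines 1 to 4, 64, 28.7, 61.9 and 45.7 in SFPQ-ABL1 lines 1 to 4, and 36.3, 73, 60.5 and 59.7 in MSCV lines 1 to 4. All 4 BCR-ABL1 lines lay under the lowest MSCV line, and SFPQ-ABL1 line 2 lay between BCR-ABL1 lines 1 and 3. The fall was 2.65-fold against MSCV (log2 fold change -1.40 ± 0.31 SE, edgeR adjusted p = 0.00427). SFPQ-ABL1 lines were 2.31-fold higher than BCR-ABL1 lines (1.21 ± 0.31, adjusted p = 0.0129), and against MSCV they had a log2 fold change of -0.20 ± 0.31 (adjusted p = 0.772). Klf1 kept its call in both of the first comparisons when any single line was left out, with log2 fold changes of -1.58 to -1.21 and 1.01 to 1.40.

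Nfe2 (chromosome 15, 103248212 to 103258403, minus strand) encodes the lineage-restricted subunit of a factor that pairs with small Maf proteins. It had 279, 178, 268 and 378 CPM in BCR-ABL1 lines 1 to 4, 344, 354, 467 and 438 in SFPQ-ABL1 lines 1 to 4, and 415, 432, 537 and 590 in MSCV lines 1 to 4. The BCR-ABL1 lines lay under all MSCV lines, and BCR-ABL1 line 4 reached into the SFPQ-ABL1 range. Nfe2 fell 1.79-fold in BCR-ABL1 against MSCV lines (log2 fold change -0.84 ± 0.20 SE, edgeR adjusted p = 0.00594). The log2 fold change was -0.30 ± 0.20 for SFPQ-ABL1 over MSCV (adjusted p = 0.441) and 0.54 ± 0.20 for SFPQ-ABL1 over BCR-ABL1 (adjusted p = 0.06). With all lines kept, this last difference passed with DESeq2 (adjusted p = 0.0354) and limma-voom (0.0476), and with edgeR when no filter (0.035) or no normalization factors (0.0326) were used. Without BCR-ABL1 line 4 it was 0.73 with an edgeR adjusted p of 0.0154.

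Fli1 (chromosome 9, 32422204 to 32542861, minus strand), an ETS family factor of megakaryocytes, varied less than any other of the 10 in the SFPQ-ABL1 lines. It had 139, 134, 133 and 135 CPM in SFPQ-ABL1 lines 1 to 4 and 112, 108, 102 and 116 in BCR-ABL1 lines 1 to 4, and these groups did not overlap. MSCV lines 1 to 4 had 124, 139, 109 and 115 CPM. Their range took in the SFPQ-ABL1 lines and BCR-ABL1 lines 1 and 4, while BCR-ABL1 lines 2 and 3 lay below it. Fli1 was 1.23-fold higher in SFPQ-ABL1 than in BCR-ABL1 lines (log2 fold change 0.30 ± 0.08 SE, edgeR adjusted p = 0.0179). Against MSCV it was at -0.16 ± 0.08 for BCR-ABL1 and 0.15 ± 0.08 for SFPQ-ABL1, neither of which passed (adjusted p = 0.175 and 0.363). Without BCR-ABL1 line 3 the difference between the fusions was 0.27 with an adjusted p of 0.058. Fli1 overlaps 6 annotated genes, of which the highest had 51 counts in any library.

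Itga2b (chromosome 11, 102453297 to 102470122, minus strand) had 1154, 727, 1277 and 1176 CPM in BCR-ABL1 lines 1 to 4. It had 735, 637, 798 and 869 CPM in SFPQ-ABL1 lines 1 to 4 and 874, 528, 891 and 945 in MSCV lines 1 to 4. BCR-ABL1 lines 1, 3 and 4 were above every other line, and BCR-ABL1 line 2 lay among the lines of both other groups. The log2 fold changes were 0.42 ± 0.20 for BCR-ABL1 over MSCV, -0.09 ± 0.20 for SFPQ-ABL1 over MSCV and -0.51 ± 0.20 for SFPQ-ABL1 over BCR-ABL1, with edgeR adjusted p of 0.12, 0.843 and 0.0724. With all lines kept, DESeq2 called the last of these (adjusted p = 0.0407) and limma-voom did not (0.0939), and neither called BCR-ABL1 over MSCV (0.0875 and 0.128). Single lines also changed the calls. Without BCR-ABL1 line 2 the edgeR adjusted p was 0.0306 for BCR-ABL1 over MSCV and 0.0191 for SFPQ-ABL1 over BCR-ABL1, and without MSCV line 2 it was 0.0287 for SFPQ-ABL1 over BCR-ABL1.

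Pf4 and Ppbp, the granule chemokine genes, were raised in all 4 BCR-ABL1 lines and near 0 elsewhere. They lie 2371 bases apart on chromosome 5 (Ppbp 90768518 to 90770063, Pf4 90772435 to 90773383, both plus strand). Pf4 had 3.59, 6.8, 4.19 and 13 CPM in BCR-ABL1 lines 1 to 4, 0.0536, 0.195, 0.0365 and 0.18 in SFPQ-ABL1 lines 1 to 4, and 0.0881, 0.0538, 0.0661 and 0.292 in MSCV lines 1 to 4. No BCR-ABL1 line overlapped another group, and the ranges of SFPQ-ABL1 and MSCV lines overlapped. Pf4 rose 55.8-fold in BCR-ABL1 against MSCV lines (log2 fold change 5.80 ± 0.65 SE). It passed the filter on low counts through the BCR-ABL1 lines, so its edgeR calls against them add no support. MSCV line 4 holds 19 of the 35 MSCV counts, and the log2 fold change was 6.59 without it and 5.30 to 6.01 without any other single line of both groups. Pf4 was 59.6-fold lower in SFPQ-ABL1 than in BCR-ABL1 lines (-5.90 ± 0.65), and SFPQ-ABL1 over MSCV gave -0.09 ± 0.71 (edgeR adjusted p = 0.961).

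Ppbp gave 41, 147, 64 and 163 counts in BCR-ABL1 lines 1 to 4, 1, 0, 0 and 3 counts in SFPQ-ABL1 lines 1 to 4, and 0, 0, 0 and 2 counts in MSCV lines 1 to 4. The ratio of BCR-ABL1 to MSCV was 220, from 415 against 2 counts and with an exact 95% counting interval of 60.6 to 1825. The ratio of SFPQ-ABL1 to BCR-ABL1 was 0.00907 (0.00246 to 0.0234), from 4 against 415 counts. These intervals cover counting error only, since reads without molecular identifiers are not independent molecules. Ppbp was called higher in BCR-ABL1 than in MSCV lines and lower in SFPQ-ABL1 than in BCR-ABL1 lines. Like Pf4, it passed the filter on low counts through the BCR-ABL1 lines, so these calls add no support. In both genes BCR-ABL1 lines 2 and 4 had the highest values and lines 1 and 3 the lowest, whereas in Klf1 and Gata1 lines 2 and 4 had the lowest.

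Against the rest of the table, the share of the 10 genes that passed was near that of all genes. In BCR-ABL1 against MSCV lines 4 of 10 were called, where 32.1% of the 17197 tested genes were. Those were 2 higher (Pf4 and Ppbp), with 15.8% of all genes called higher, and 2 lower (Klf1 and Nfe2), with 16.3% called lower. The lines of both groups did not overlap for the same 4 genes, against 31.6% of all genes. Pf4 and Ppbp reached the test through the group in which they are high, so their count adds nothing to this. In SFPQ-ABL1 against MSCV lines edgeR called 0 of 10, with 0 at an unadjusted p under 0.05, and DESeq2 and limma-voom also called 0. Of all genes 1.79% were called in that comparison, 0.814% higher and 0.977% lower, and 11.2% had lines that did not overlap, against 0 of the 10. In SFPQ-ABL1 against BCR-ABL1 lines edgeR called 4 of 10, against 26% of all genes, while DESeq2 called 6 and limma-voom 5. In BCR-ABL1 against MSCV lines DESeq2 called 5 and limma-voom 4. By edgeR, Klf1 and Fli1 were higher (13.2% of all genes), Pf4 and Ppbp were lower (12.8%), and 3 of the 10 had lines that did not overlap (27.9%). Without BCR-ABL1 line 4 and SFPQ-ABL1 line 2 the calls numbered 4 in BCR-ABL1 against MSCV lines, 0 in SFPQ-ABL1 against MSCV lines and 6 in SFPQ-ABL1 against BCR-ABL1 lines, Gata1 and Nfe2 being added (edgeR adjusted p = 0.0474 and 0.0153). The median log2 fold change over the 10 genes was -0.09 in each comparison, against -0.01, 0.00 and 0.01 over all genes. Among the 7 transcription factor genes the medians were -0.18 for BCR-ABL1 over MSCV, -0.20 for SFPQ-ABL1 over MSCV and 0.30 for SFPQ-ABL1 over BCR-ABL1.

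**Figure D2:**
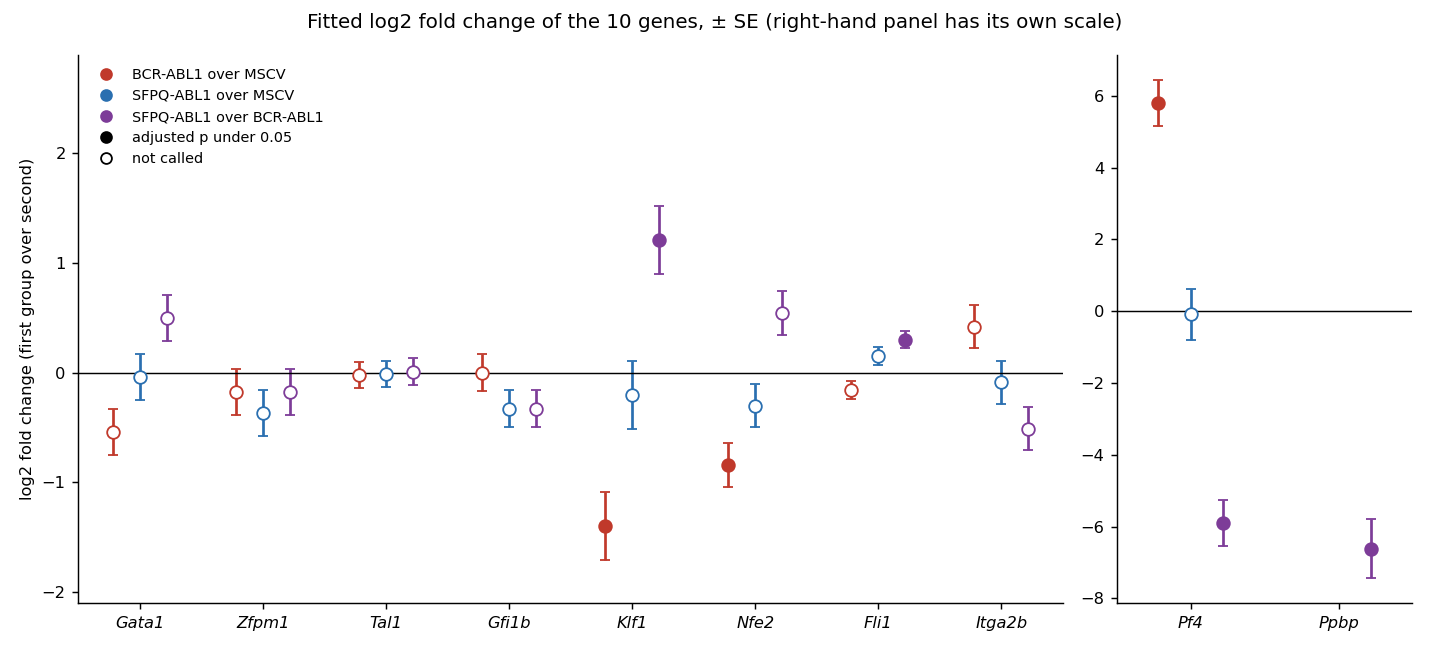
Fitted log2 fold change (vertical axis, ± SE) of the 10 genes for BCR-ABL1 over MSCV, SFPQ-ABL1 over MSCV and SFPQ-ABL1 over BCR-ABL1; filled points passed an edgeR adjusted p of 0.05, and Ppbp has no points against MSCV because that group holds 2 counts. Klf1 stands at -1.40 and 1.21 and Pf4 at 5.80 and -5.90, while the points of Tal1 sit on the zero line.

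The chromosome around Pf4 and Ppbp was read next, and the other chemokine genes named here were chosen after their values were seen. Of 10 protein-coding genes reaching within 200 kb of Pf4, Cxcl3 starts 13.7 kb and Cxcl2 131 kb above the Pf4 start, and both encode chemokines that attract neutrophils. Like Ppbp, both passed the filter on low counts through the BCR-ABL1 lines, so no test is given for them. Cxcl3 had 54, 460, 126 and 286 counts in BCR-ABL1 lines 1 to 4, 0, 3, 0 and 7 in SFPQ-ABL1 lines 1 to 4, and 0 in each MSCV line. This was at least 328-fold higher in BCR-ABL1 than in MSCV lines, taking a floor of 3 counts over the MSCV group. Cxcl2 had 16, 21, 26 and 47 counts in BCR-ABL1 lines 1 to 4, 0 in each SFPQ-ABL1 line, and 2, 0, 0 and 0 in MSCV lines 1 to 4, a ratio to MSCV of 58.4 (15.8 to 488). Both of those MSCV counts came from line 1. It was at least 39-fold lower in SFPQ-ABL1 than in BCR-ABL1 lines. All 4 BCR-ABL1 lines thus stood above every other line for both genes, as for Pf4 and Ppbp. Cxcl5 and Cxcl1, which lie in the same stretch, had 0 counts in all 12 lines, and Cxcl15 and Mthfd2l had 2 and 3 counts in all. On the far side 2 genes were expressed. 5830473C10Rik, which starts 211 kb below Pf4, was at 17.3 ± 1.4 CPM in BCR-ABL1 lines, 11 ± 1.27 in SFPQ-ABL1 lines and 12.3 ± 2.27 in MSCV lines. It was higher in BCR-ABL1 than in MSCV lines (log2 fold change 0.49 ± 0.14, edgeR adjusted p = 0.0146) and lower in SFPQ-ABL1 than in BCR-ABL1 lines (-0.66 ± 0.14, adjusted p = 0.0037). Rassf6, which starts 169 kb below Pf4, was at 6.08 ± 0.428 CPM in BCR-ABL1 lines, 3.97 ± 0.534 in SFPQ-ABL1 lines and 4.67 ± 0.48 in MSCV lines. Its log2 fold change was 0.38 ± 0.14 for BCR-ABL1 over MSCV (adjusted p = 0.053) and -0.61 ± 0.14 for SFPQ-ABL1 over BCR-ABL1 (adjusted p = 0.00673). The first of these passed without SFPQ-ABL1 line 2 (adjusted p = 0.0421) and without MSCV line 2 (0.0374).

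**Figure D3:**
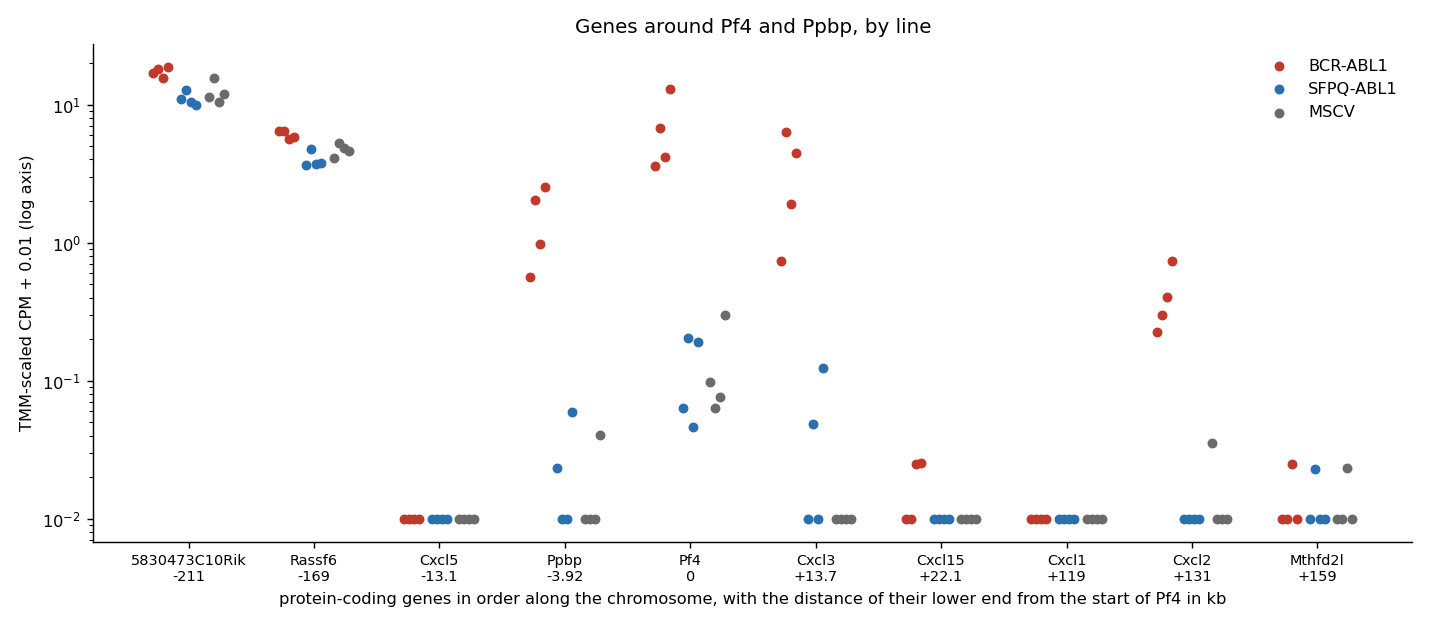
TMM-scaled CPM plus 0.01 (log axis) of the 10 protein-coding genes around Pf4, in chromosome order with the distance of each from the Pf4 start in kb; each point is a line of the BCR-ABL1, SFPQ-ABL1 or MSCV group. Ppbp, Pf4, Cxcl3 and Cxcl2 are raised in the 4 BCR-ABL1 lines, while Cxcl5 and Cxcl1 have 0 counts everywhere and 5830473C10Rik and Rassf6 differ by less than 2-fold between group means.

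Genes with the pattern most like that of Klf1, Gata1 and Pf4 were found by the root-mean-square distance of centred log2 CPM over the 12 libraries, among 10521 protein-coding genes. Hip1r (0.27), Alad (0.30) and Lrrc56 (0.31) were nearest to Klf1, where the median gene was at 0.81. Alad, which encodes the second enzyme of haem synthesis, had 57.9, 35.9, 48.3 and 36.6 CPM in BCR-ABL1 lines 1 to 4, 189, 102, 179 and 106 in SFPQ-ABL1 lines 1 to 4, and 104, 154, 123 and 151 in MSCV lines 1 to 4. It shared with Klf1 its low BCR-ABL1 lines 2 and 4 and its low SFPQ-ABL1 line 2. Nearest to Gata1 were Gypc (0.11), which encodes a red cell membrane glycoprotein, Ogfrl1 (0.14) and R3hdm4 (0.14), against a median gene at 0.45. Gypc had 103, 73.3, 91.1 and 73.5 CPM in BCR-ABL1 lines 1 to 4, 124, 85.9, 150 and 137 in SFPQ-ABL1 lines 1 to 4, and 111, 116, 121 and 128 in MSCV lines 1 to 4. Nearest to Pf4 were the endotoxin receptor gene Tlr4 (0.68), the hormone gene Fgf23 (0.77) and the lectin receptor gene Clec4e (0.81), with the median gene at 2.75. Tlr4 had 5.22, 19.3, 10.1 and 26 CPM in BCR-ABL1 lines 1 to 4, 0.496, 0.546, 0.182 and 1.73 in SFPQ-ABL1 lines 1 to 4, and 0.403, 0.202, 0.41 and 0.721 in MSCV lines 1 to 4. These distances rest on 12 libraries in 3 groups, so genes that share a group difference come out as near. Ppbp, which was below the level asked of these genes, was at 0.58 from Pf4.

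Partners and relatives of the transcription factors moved in both directions. Of 26 such genes 24 were tested. In BCR-ABL1 against MSCV lines 6 were higher and 6 lower (25% each, against 15.8% and 16.3% of all genes), with a median log2 fold change of -0.01. Hhex, a homeobox factor of early blood cells, was at 69.9 ± 1.36 CPM in BCR-ABL1 lines against 33.5 ± 8.88 in MSCV lines (log2 fold change 1.06 ± 0.17 SE, edgeR adjusted p = 5.04e-04). Tcf12, an E protein that pairs with Tal1, was higher as well (0.57 ± 0.10, adjusted p = 0.00112). Runx1, a core binding factor that works with Gata1 in megakaryocytes, fell to 133 ± 10.1 CPM in BCR-ABL1 lines, against 216 ± 18.2 in MSCV lines (-0.70 ± 0.09, adjusted p = 1.24e-04). Klf3, a repressor that Klf1 activates, fell to 2.27 ± 0.34 CPM in BCR-ABL1 lines, against 6.76 ± 2.02 in MSCV lines (-1.57 ± 0.25, adjusted p = 5.04e-04). Klf3 was low in the group with the least Klf1, and whether the 2 are linked in these lines was not tested. In SFPQ-ABL1 over BCR-ABL1 lines Klf3 was higher by a log2 fold change of 1.63 ± 0.25 (adjusted p = 6.81e-04).

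The small Maf genes Mafg and Mafk, whose products pair with that of Nfe2, were lower in SFPQ-ABL1 than in BCR-ABL1 lines. Against MSCV both were called higher in BCR-ABL1 lines (Mafg 0.43 ± 0.10, edgeR adjusted p = 0.00561, and Mafk 0.36 ± 0.11, 0.0217). Neither was called for SFPQ-ABL1 over MSCV (-0.06 ± 0.10 and -0.33 ± 0.11, adjusted p = 0.778 and 0.129). In SFPQ-ABL1 over BCR-ABL1 lines Nfe2 had a log2 fold change of 0.54 and passed with DESeq2 and limma-voom but not with edgeR. Mafk was at 40 ± 1.81 CPM in SFPQ-ABL1 lines against 64.2 ± 8.88 in BCR-ABL1 lines (log2 fold change -0.68 ± 0.11, edgeR adjusted p = 8.08e-04). Mafg was lower by -0.49 ± 0.10 (adjusted p = 0.0035), and Tcf12 by -0.52 ± 0.10 (adjusted p = 0.00282). In that comparison 5 of the 24 were higher and 6 lower (20.8% and 25%, against 13.2% and 12.8% of all genes). In SFPQ-ABL1 against MSCV lines 0 were higher and 1 was lower, Gata2, the factor that precedes Gata1 in blood progenitors. Gata2 had 814, 1356, 854 and 797 CPM in SFPQ-ABL1 lines 1 to 4 and 1506, 1632, 1617 and 1343 in MSCV lines 1 to 4, so SFPQ-ABL1 line 2 alone lay in the MSCV range. Its log2 fold change was -0.67 ± 0.16 (adjusted p = 0.0474), and the call ended when any 1 of 11 lines was left out (adjusted p of 0.0551 to 0.134), SFPQ-ABL1 line 2 being the exception. With both lines that stand apart left out, BCR-ABL1 line 4 and SFPQ-ABL1 line 2, 3 of the 24 were higher and 7 lower in BCR-ABL1 against MSCV lines.

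Among haem synthesis and iron uptake genes, many of which Gata1 and Klf1 activate in red cells, some fell and some rose with BCR-ABL1, in a share near that of all genes. Of 24 genes for haemoglobin, haem and iron 22 were tested, and 2 were higher and 5 lower in BCR-ABL1 against MSCV lines, with a median log2 fold change of -0.43. These calls made up 31.8% of the 22, where 32.1% of all genes were called, with 9.09% higher and 22.7% lower beside 15.8% and 16.3% of all genes. Alad fell 2.98-fold to 44.7 ± 10.5 CPM in BCR-ABL1 lines, against 133 ± 24.1 in MSCV lines (-1.58 ± 0.23, edgeR adjusted p = 3.03e-04). Urod, an enzyme of the middle of the pathway, had 45, 30.2, 38.9 and 31 CPM in BCR-ABL1 lines 1 to 4, against 67, 94.4, 73.5 and 72.3 in MSCV lines 1 to 4 (-1.08 ± 0.14, adjusted p = 1.24e-04). Tfr2, a transferrin receptor that also sits beside the erythropoietin receptor, had 21.7, 25.8, 15.9 and 30.9 CPM in BCR-ABL1 lines 1 to 4, against 88.6, 69.4, 139 and 183 in MSCV lines 1 to 4 (-2.35 ± 0.37, adjusted p = 4.68e-04). For both genes every BCR-ABL1 line was under every MSCV line. Cpox, another enzyme of the same pathway, went up, with 122 ± 14 CPM in BCR-ABL1 lines against 71.4 ± 15.3 in MSCV lines (0.78 ± 0.15, adjusted p = 0.0016).

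In SFPQ-ABL1 against BCR-ABL1 lines 10 of the 22 were higher (45.5%, against 13.2% of all genes) and 1, Cpox, was lower (4.55%, against 12.8%), with a median of 0.57 beside 0.01 over all genes. Without BCR-ABL1 line 4 and SFPQ-ABL1 line 2 these counts were 11 and 1, and in BCR-ABL1 against MSCV lines 1 was higher and 4 lower. Alad was at 144 ± 46.6 CPM in SFPQ-ABL1 lines against 44.7 ± 10.5 in BCR-ABL1 lines (log2 fold change 1.69 ± 0.23, edgeR adjusted p = 3.56e-04). Urod (0.91 ± 0.14, adjusted p = 6.45e-04), Tfr2 (2.12 ± 0.36, adjusted p = 0.00134) and Fech, which puts the iron into haem (0.53 ± 0.09, adjusted p = 0.0017), were higher too. Against MSCV, 3 genes were higher in SFPQ-ABL1 lines and 0 lower (13.6% higher, against 0.814% of all genes). They were the iron transporter gene Slc11a2 (0.72 ± 0.13, adjusted p = 0.0191), the transferrin receptor gene Tfrc (0.97 ± 0.21, adjusted p = 0.0351) and Alas1, the general first enzyme of haem synthesis (0.82 ± 0.17, adjusted p = 0.0352). Tfrc had 491, 569, 617 and 740 CPM in SFPQ-ABL1 lines 1 to 4 and 188, 312, 345 and 386 in MSCV lines 1 to 4, with no overlap. These calls ended without single lines. The call ended without SFPQ-ABL1 line 1, 3 or 4 or MSCV line 2, 3 or 4 for Slc11a2 (adjusted p of 0.0547 to 0.0667). Tfrc lost its call without BCR-ABL1 line 3, SFPQ-ABL1 line 3 or 4 or MSCV line 2, 3 or 4 (0.0507 to 0.0941), and Alas1 without BCR-ABL1 line 3, SFPQ-ABL1 line 1, 3 or 4 or any MSCV line (0.0562 to 0.0981).

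The alpha globin gene Hba-a1, outside the rule for named genes and chosen after its values were seen, had 424, 68.2, 157 and 123 CPM in BCR-ABL1 lines 1 to 4. It had 980, 111, 924 and 446 CPM in SFPQ-ABL1 lines 1 to 4 and 233, 676, 618 and 874 in MSCV lines 1 to 4. The groups overlapped, and the edgeR adjusted p was 0.0708 for BCR-ABL1 over MSCV, 0.985 for SFPQ-ABL1 over MSCV and 0.075 for SFPQ-ABL1 over BCR-ABL1. Hba-a1 and Hba-a2 are near-identical copies, so the split of reads between them is uncertain. Hba-a2 was called lower for BCR-ABL1 over MSCV (-1.62 ± 0.59, edgeR adjusted p = 0.0498). It was called higher for SFPQ-ABL1 over BCR-ABL1 (1.69 ± 0.59, 0.0497), as was the beta globin gene Hbb-bt (3.64 ± 1.07, 0.0242). In each of these calls the lines of the groups compared overlapped. Hba-a2 was at 1.88 to 12.8 CPM in BCR-ABL1 lines, 5.86 to 29 in SFPQ-ABL1 lines and 7.7 to 28.4 in MSCV lines. Hbb-bt was near 0 with BCR-ABL1, at 0 to 0.431 CPM, against 0.338 to 6.58 CPM in SFPQ-ABL1 lines. Hbb-bs, Hbb-y and Hba-x were called in no comparison. For Hba-a1, SFPQ-ABL1 line 2 was again the low line of its group, as for Klf1, Alad and Gypc.

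Of 22 red cell membrane and receptor genes 13 were tested. In BCR-ABL1 against MSCV lines 1 was higher and 4 lower (7.69% and 30.8%, against 15.8% and 16.3% of all genes), with a median log2 fold change of -0.30. Epor, the erythropoietin receptor gene, fell to 17.5 ± 5.28 CPM in BCR-ABL1 lines, against 35.6 ± 4.89 in MSCV lines (-1.03 ± 0.20, edgeR adjusted p = 0.00197). Trim58, a ubiquitin ligase of late red cell precursors, fell to 9.34 ± 2.4 CPM in BCR-ABL1 lines, against 32 ± 11.8 in MSCV lines (-1.78 ± 0.26, adjusted p = 2.89e-04). Tspo2, a red cell membrane protein gene, fell as well (-1.02 ± 0.16, adjusted p = 4.81e-04), while Epb41, a membrane skeleton gene, was higher (0.34 ± 0.10, adjusted p = 0.0184). The Epb41 call ended without BCR-ABL1 line 4 (adjusted p = 0.0576). In SFPQ-ABL1 against BCR-ABL1 lines 4 were higher and 2 lower (30.8% and 15.4%, against 13.2% and 12.8%), with Tspo2 at 0.99 ± 0.16 (adjusted p = 9.31e-04), Trim58 at 1.58 ± 0.26 (adjusted p = 9.75e-04) and Epor at 0.81 ± 0.20 (adjusted p = 0.0108). With BCR-ABL1 line 4 and SFPQ-ABL1 line 2 left out 5 were higher and 1 lower. In SFPQ-ABL1 against MSCV lines edgeR called 0 of the 13, with 2 at an unadjusted p under 0.05, and DESeq2 and limma-voom also called 0.

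The summed level of 8 red cell markers ran from 88.2 to 472 CPM in BCR-ABL1 lines, 144 to 1070 in SFPQ-ABL1 lines and 273 to 945 in MSCV lines, with Slc4a1 near 0 in all. Most of each sum was Hba-a1 alone, at 68.2 to 424, 111 to 980 and 233 to 874 CPM in the same order. At least 1 CPM on average was reached by 5, 6 and 5 of the 8 in these groups. The sums overlapped between all groups, and their part in the Klf1, haem and membrane gene results was not tested.

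**Figure D4:**
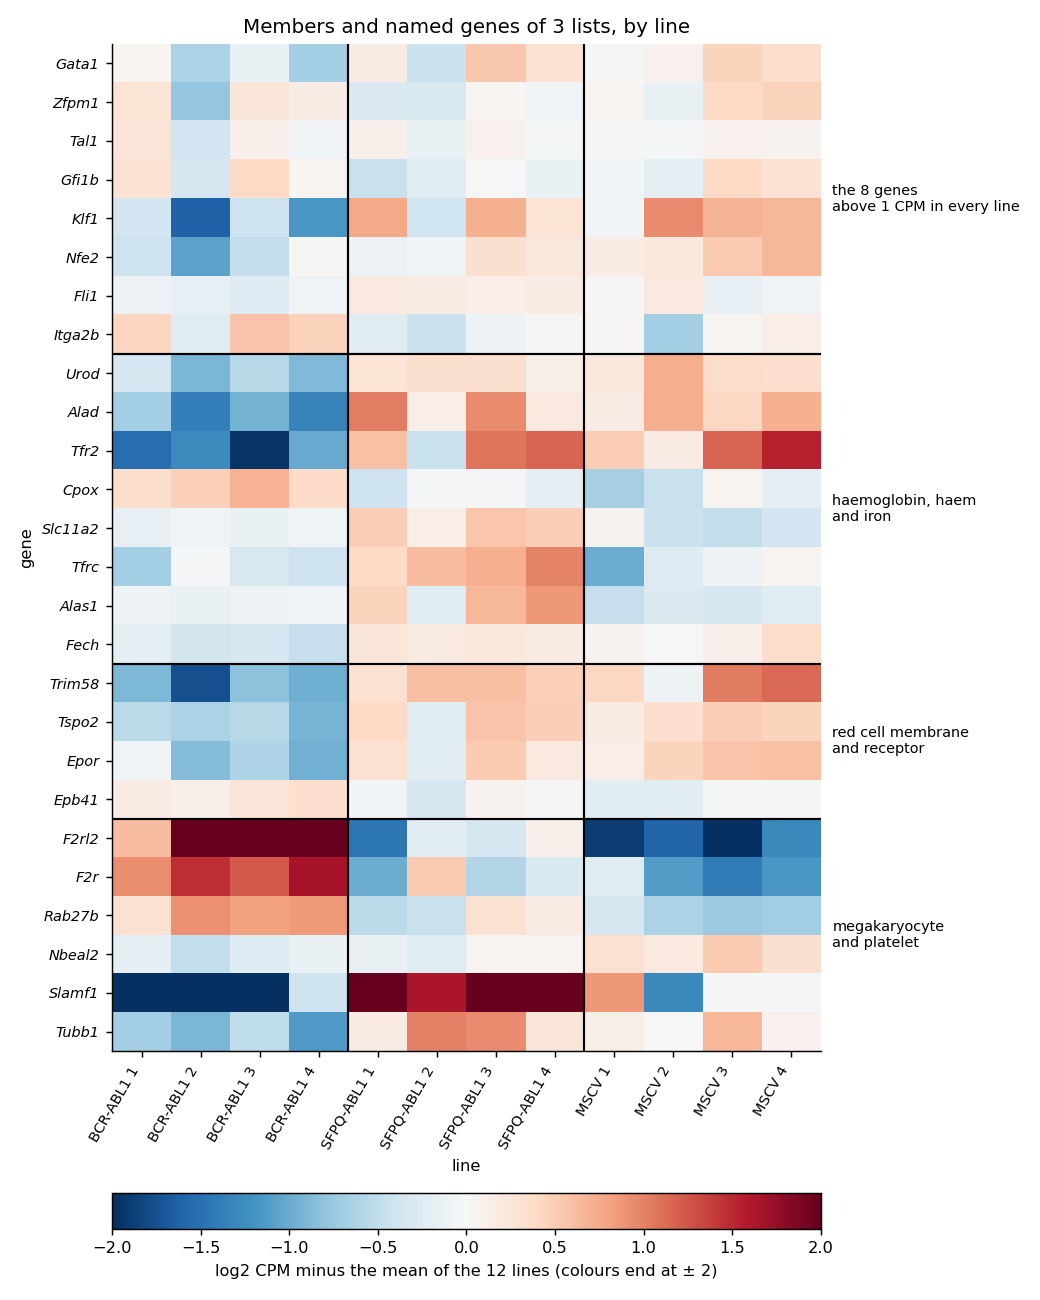
Log2 CPM of each gene (rows) in each line (columns) minus its mean over the 12 lines, for the 8 genes of the set above 1 CPM in every line and for named genes of 3 lists; red is above and blue below the gene's own mean, and colours end at ± 2. Klf1, Urod, Alad, Tfr2, Trim58 and Tspo2 are blue in the BCR-ABL1 columns, where Cpox, F2rl2, F2r and Rab27b are red.

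Other megakaryocyte and platelet genes moved in both directions where Pf4 and Ppbp rose. Of 30 genes 21 were tested, and in BCR-ABL1 against MSCV lines 4 were higher and 5 lower (19% and 23.8%, against 15.8% and 16.3% of all genes), with a median log2 fold change of -0.23. The higher ones included the thrombin receptor genes F2r and F2rl2. F2r had 970, 1425, 1196 and 1594 CPM in BCR-ABL1 lines 1 to 4, 257, 729, 340 and 414 in SFPQ-ABL1 lines 1 to 4, and 430, 235, 191 and 228 in MSCV lines 1 to 4 (2.26 ± 0.32 for BCR-ABL1 over MSCV, edgeR adjusted p = 2.75e-04). Every BCR-ABL1 line was above every other line for this gene. F2rl2 was at 19.7 ± 11.4 CPM in BCR-ABL1 lines against 1.14 ± 0.27 in MSCV lines (4.12 ± 0.49, adjusted p = 7.55e-05), and Rab27b, a granule secretion gene, was at 27.5 ± 4.8 against 11 ± 1.43 CPM (1.32 ± 0.20, adjusted p = 3.48e-04). Nbeal2, needed for platelet alpha granules, was lower (-0.60 ± 0.11, adjusted p = 0.00117).

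In SFPQ-ABL1 against BCR-ABL1 lines 4 of the 21 were higher and 4 lower (19% each, against 13.2% and 12.8% of all genes). Without BCR-ABL1 line 4 and SFPQ-ABL1 line 2 it was 3 and 5, and 3 higher and 6 lower in BCR-ABL1 against MSCV lines. Slamf1, a surface receptor of stem cells and lymphocytes, was higher by 4.27 ± 0.64 (edgeR adjusted p = 6.00e-04; 5.34 without BCR-ABL1 line 4), and Tubb1, the platelet tubulin gene, by 1.43 ± 0.23 (adjusted p = 9.87e-04). F2rl2 and F2r were lower by -2.82 ± 0.45 and -1.58 ± 0.32 (adjusted p = 9.15e-04 and 0.00326). In SFPQ-ABL1 against MSCV lines edgeR called 0 of the 21, with 8 at an unadjusted p under 0.05, while DESeq2 called 3 and limma-voom 1. The 7 megakaryocyte markers summed to 21.9 to 57.6 CPM in BCR-ABL1 lines, 30.8 to 62 in SFPQ-ABL1 lines and 26.4 to 72.2 in MSCV lines, 6 of 7 reached 1 CPM on average in each group, and Vwf was near 0. These sums leave Pf4 and Ppbp out, and their ranges overlapped in all 3 groups.

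Exon counts asked whether the make-up of the transcripts differed. Of the 10 genes 8 could be tested by diffSpliceDGE, and 0 were called in any of the 3 comparisons. In BCR-ABL1 against MSCV lines 0 of 8 had an unadjusted p under 0.05 and 0.192% of 9875 genes were called, in SFPQ-ABL1 against MSCV lines 0 of 8 and 0.0608%, and in SFPQ-ABL1 against BCR-ABL1 lines 1 of 8 and 0.132%. That gene was Itga2b, with a diffSpliceDGE adjusted p of 1, and of all exons of the 10 genes its exon 6 had the smallest unadjusted value. Exon counts came to between 4.53% and 12.8% of the gene counts across the 10 genes, and which reads they hold is not given in the labels.

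Single lines stood out in the Itga2b exons, which are numbered here from the 5′ end of the first annotated transcript and taken as shares of the counts on its 30 exons. BCR-ABL1 line 1 had 1.63% of its Itga2b exon counts on exon 6 (chromosome 11, 102466477 to 102466522, mm10), which was 91 counts. The other 11 lines had 0.056 to 0.321%, or 1 to 13 counts. The same line had 1.7% on exon 5, against 0.36 to 0.885% elsewhere. BCR-ABL1 line 4 had 16.6% on exon 13, against 7.42 to 9.34% in the other lines, 11% on exon 15 (4.47 to 5.92%), 2.33% on exon 16 (0.386 to 0.993%) and 11% on exon 17 (5.07 to 7.68%). The exons from 13 to 17 span 102460749 to 102461819 on chromosome 11. Each pattern belonged to 1 line and not to its group.

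MSCV line 2, which had the lowest Itga2b level of its group, also had more of its exon counts at the 3′ end. Of 8 genes with exon counts in every line, it had the highest share on the last exon in 5 and the lowest share on the first exon in 5. On Fli1 exon 9 it had 93.9%, against 80.5 to 87.5% in the other 11 lines. On Gata1 exon 6 it had 63.9% (46.9 to 56.3% elsewhere) and on Gfi1b exon 7 59.6% (41.2 to 54.4%). For Itga2b it had 2.91% on exon 30 (1.47 to 2.45%) and 3.42% on exon 1 (4.63 to 10.3%). The part of this shift in the Itga2b level was not tested.

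**Figure D5:**
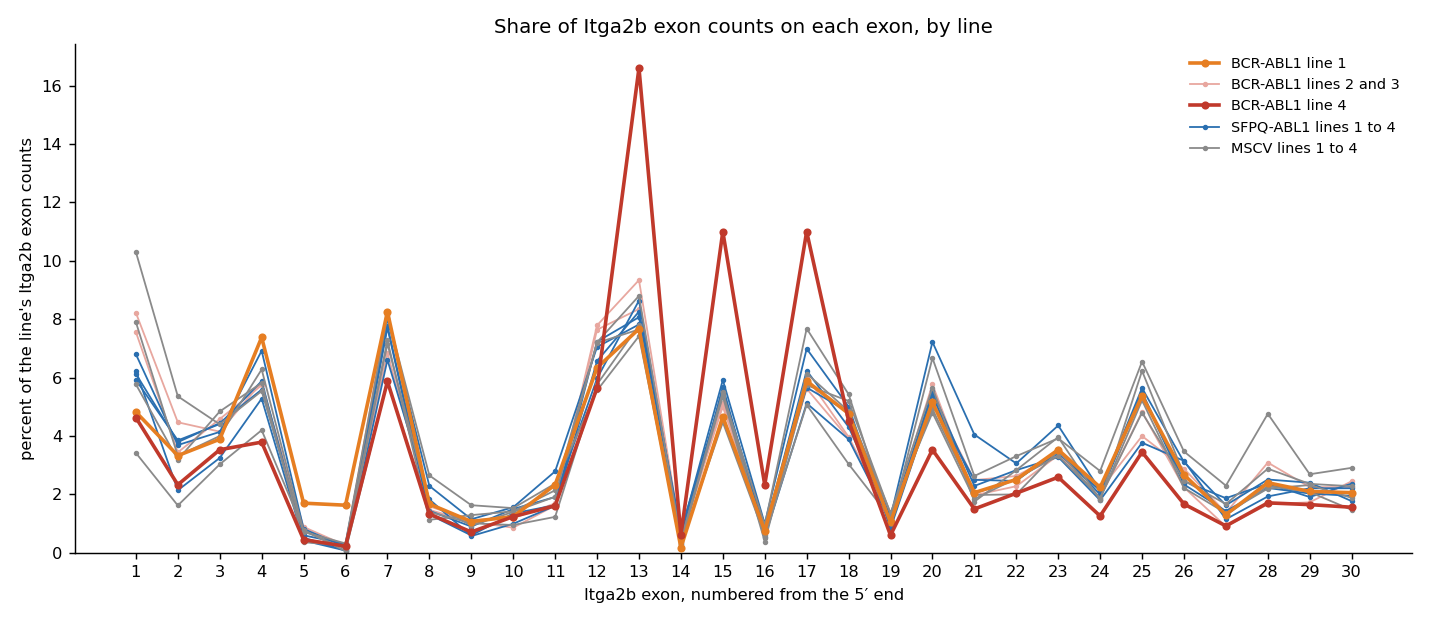
Percent of each line's Itga2b exon counts (vertical axis) on exons 1 to 30 from the 5′ end (horizontal axis), with 1 curve for each of the 12 lines. BCR-ABL1 line 4 reaches 16.6% on exon 13 and 11% on exons 15 and 17, and BCR-ABL1 line 1 is the only one above 1% on exon 6.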

How the data were processed

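RNA sequencing measured 12 Ba/F3 libraries. The authors deposited raw read counts per Ensembl gene and per exon, and the submitters' processing notes name Subread, featureCounts and mm10, without versions, strand or multi-mapping settings. Symbols came from GENCODE release M21, which matched 55230 of 55471 identifiers.

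Gene counts were filtered with filterByExpr, scaled by TMM and tested with edgeR 4.0.16 (quasi-likelihood, R 4.3.3) over all 12 libraries, 2-sided, with Benjamini-Hochberg adjustment over 17197 genes and calls at an adjusted p under 0.05. Usage of exons was compared by diffSpliceDGE for those passing filterByExpr, with at least 10 counts in 4 libraries as an alternative filter. Alternatives were DESeq2 1.42.0, limma-voom (limma 3.58.1), other scalings, no filter, the 8 libraries compared, a replicate block and each line left out. Scripts were tested on simulated data.

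Besides the 10 genes, up to 4 called genes with the smallest adjusted p and at least 1 CPM were named per list and comparison, with the 3 genes nearest to Klf1, Gata1 and Pf4; some listed genes are not reported here. The 10 genes and the lists were chosen with earlier results of these data known. Replicate numbers were not used to pair the lines in the main fit. Pairs of one group differed beyond counting noise (chi-square per degree of freedom of 33.12 to 181.8 over 18 pairs). 1 CPM stood for 61.15 to 82.2 counts across libraries.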

Additional observations from a re-analysis of the deposited data

Results flagged for a closer look

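In 3 of 31 groups of 4 lines examined, 1 line lay far from the other 3. Chance alone gives such a gap in about 1 in 20 groups if values are independent and normally distributed, which was not tested here. BCR-ABL1 line 2 had 222 CPM of Zfpm1, against 422 to 458 in BCR-ABL1 lines 1, 3 and 4. MSCV line 2 had 528 CPM of Itga2b, where the other MSCV lines had 874 to 945. MSCV line 4 had 0.292 CPM of Pf4, where the other MSCV lines had 0.0538 to 0.0881.

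For 4 genes the changes of SFPQ-ABL1 and BCR-ABL1 lines from MSCV differed from each other, which is the same contrast as SFPQ-ABL1 over BCR-ABL1. The difference on the log2 scale was 1.21 for Klf1 and 0.30 for Fli1, both higher in SFPQ-ABL1 lines. It was -5.90 for Pf4 and -6.61 for Ppbp, both lower in SFPQ-ABL1 lines, and the Ppbp value rests on 4 counts in the SFPQ-ABL1 group.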

How the results depend on the processing

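Of 20 other settings, 12 had 1 line left out. Klf1 and Nfe2 kept their direction and call for BCR-ABL1 over MSCV in all 20, and so did Klf1 for SFPQ-ABL1 over BCR-ABL1. Pf4 kept its direction in both comparisons, while its calls add no support because it passed the filter through the BCR-ABL1 lines. The setting that leaves out both BCR-ABL1 line 4 and SFPQ-ABL1 line 2 was chosen after seeing the data. Genes called in SFPQ-ABL1 against MSCV lines numbered 308, but 1131 with DESeq2, 110 in the fit of 8 libraries, 498 without both lines, and 33 to 467 with 1 line left out, the fewest without MSCV line 3. Of the 10 genes, 2 were higher in SFPQ-ABL1 than in BCR-ABL1 lines, but 4 without both lines, and 1 to 3 with 1 line left out. Without normalization factors 210 genes were higher and 114 lower in SFPQ-ABL1 against MSCV lines, where TMM gave 140 and 168, and 2841 higher and 1750 lower in SFPQ-ABL1 against BCR-ABL1 lines, where TMM gave 2268 and 2203.

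Signs turned only for log2 fold changes that were not called. With 1 line left out, BCR-ABL1 over MSCV ran from -0.28 to 0.01 for Zfpm1, -0.12 to 0.09 for Tal1 and -0.11 to 0.12 for Gfi1b. SFPQ-ABL1 over MSCV ran from -0.19 to 0.12 for Gata1, -0.05 to 0.03 for Tal1, -0.51 to 0.70 for Pf4 and -0.52 to 3.18 for Ppbp, and from -2.63 to 0.00 for Cxcl2, with 0.00 without MSCV line 1. SFPQ-ABL1 over BCR-ABL1 ran from -0.11 to 0.10 for Tal1. Without both lines, Tal1 was at 0.00 and Gfi1b at 0.02 for BCR-ABL1 over MSCV, and Gata1 at 0.12 and Tal1 at 0.03 for SFPQ-ABL1 over MSCV. Gfi1b was at 0.00 for BCR-ABL1 over MSCV with RLE factors and with DESeq2. Without normalization factors Gata1 was at 0.02 and Tal1 at 0.04 for SFPQ-ABL1 over MSCV. The cause was not tested.

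Lines with the same replicate number correlated at -0.00632 to 0.385, over 0.1 in 7 of 12 pairs, and 6 of the 12 were the best match, 3 of 4 between BCR-ABL1 and SFPQ-ABL1. The labels tie no number to a shared batch, so the numbers were not taken as pairs. With a replicate block, 7 of the 10 genes were called in SFPQ-ABL1 against BCR-ABL1 lines, 4 of them higher, with Gata1 (edgeR adjusted p = 0.0428), Nfe2 (0.00804) and Itga2b (0.00543) added. It called 6 in BCR-ABL1 against MSCV lines, adding Gata1 (0.021) and Itga2b (0.00808), and 0 in SFPQ-ABL1 against MSCV lines, where 726 genes were called in all. The block called 0 of the 10 genes for exon usage. Depth limits Ppbp, Cxcl2 and Cxcl3, which had 0 to 7 counts per line outside the BCR-ABL1 group.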

Other observations

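Some genes of other blood cell types were called beside the red cell and platelet genes. Of 15 granulocyte and monocyte genes 9 were tested, and edgeR called 0 higher and 4 lower in BCR-ABL1 against MSCV lines and 4 higher and 0 lower in SFPQ-ABL1 against BCR-ABL1 lines (44.4% in each case, against 16.3% of all genes lower in the first and 13.2% higher in the second). Ms4a3, a membrane protein gene of granulocyte progenitors, averaged 223 ± 68.2 CPM in BCR-ABL1 lines, 438 ± 16.4 in SFPQ-ABL1 lines and 574 ± 162 in MSCV lines (SD, n = 4 each). Its log2 fold change was -1.36 ± 0.23 for BCR-ABL1 over MSCV (edgeR adjusted p = 7.29e-04). Mpo, which encodes myeloperoxidase, was at 45.1 ± 23.4 CPM in SFPQ-ABL1 lines against 5.21 ± 2.92 in BCR-ABL1 lines (3.11 ± 0.50, adjusted p = 9.09e-04).

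Of 15 early B lineage genes 4 were tested. In BCR-ABL1 against MSCV lines edgeR called 0 higher and 3 lower (75% lower, against 16.3% of all genes). In SFPQ-ABL1 against BCR-ABL1 lines it called 3 higher and 0 lower (75% higher, against 13.2%). Ptprc was called in neither (adjusted p = 0.851 and 0.172). Cd79b, a signalling chain of the B cell receptor, was at 15.4 to 24.2 CPM in BCR-ABL1 lines, 31.9 to 36.6 in SFPQ-ABL1 lines and 41.6 to 53.8 in MSCV lines, with no overlap. Its log2 fold change was -1.27 ± 0.13 for BCR-ABL1 over MSCV (edgeR adjusted p = 3.48e-05) and 0.75 ± 0.13 for SFPQ-ABL1 over BCR-ABL1 (0.00143).

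Of 13 mast cell and basophil genes 6 were tested. Cpa3, the mast cell carboxypeptidase gene, had 0.876, 42.2, 4.75 and 4.35 CPM in BCR-ABL1 lines 1 to 4, 0.0268, 2.35, 0.0973 and 0.0981 in SFPQ-ABL1 lines 1 to 4, and 0.365, 0.0538, 0.0793 and 0.338 in MSCV lines 1 to 4. BCR-ABL1 line 2 stood far above all others. Of the 6 genes edgeR called 2 higher and 3 lower in BCR-ABL1 against MSCV lines (33.3% and 50%, against 15.8% and 16.3% of all genes). Cpa3 and Il1rl1 were the higher ones. Fcer1g (log2 fold change -1.51 ± 0.17, edgeR adjusted p = 5.45e-05), Ms4a2 (-0.95 ± 0.15, 5.96e-04) and Cma1 (-2.48 ± 0.74, 0.0204) were lower. For Fcer1g and Ms4a2 the lines of both groups did not overlap. The summed level of 6 mast cell and basophil markers ran from 9.3 to 53.2 CPM in BCR-ABL1 lines, 9.04 to 14 in SFPQ-ABL1 lines and 12.6 to 16.5 in MSCV lines, with Kit and Mcpt8 near 0, and its part in the Pf4 and Ppbp results was not tested.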
